A study of Homo sapiens with 12 samples.

Results

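The genes described here are 10 genes of class II antigen presentation in ZR-75-1, a human breast cancer line that expresses the oestrogen receptor, out of 60612 named rows in the table of read counts. They are the invariant chain *CD74*, the class II chains *HLA-DRA*, *HLA-DRB1*, *HLA-DPA1*, *HLA-DPB1* and *HLA-DQB1*, the peptide-loading subunits *HLA-DMA* and *HLA-DMB*, the transactivator *CIITA* and the DNA-binding factor *RFX5*. They were chosen by symbol after *CD74* and *HLA-DRA* had been seen raised in cells without *RB1*, so the levels of these genes between genotypes are given as a description with no test. All 10 symbols were found in the table.

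RNA was sequenced from ZR-75-1 cells edited with CRISPR using a guide that has no target (sgControl) or a guide against *RB1* (*RB1* knockout). *RB1* encodes Rb, the retinoblastoma protein. Cells of each genotype received the solvent DMSO or 500 nM abemaciclib, which blocks CDK4 and CDK6, the kinases that inactivate Rb, for 5 days. Each of the 4 groups (sgControl DMSO, sgControl abemaciclib, knockout DMSO, knockout abemaciclib) had 3 replicates, which the submitters call biological. Knockout lines of the study were grown from single sorted cells, and how the sgControl line was derived and how many clones stand behind each are not given in the sources used here, so differences between genotypes cannot be told apart from differences between clones. The replicates are samples of the same lines, and p-values therefore measure the spread between samples and not between clones.

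Depth was 39907318 to 81636393 counts per library. *RB1* itself, at 4577 ± 368 normalized counts (SD, n = 3) in sgControl DMSO and 2372 ± 118 in sgControl abemaciclib, was at 46.8 ± 6.26 and 54.0 ± 9.67 in the corresponding knockout groups, as the labels state. Normalized counts are read counts divided by the size factor of the library. All 8 luminal breast markers were present in every group, with summed levels of 699607 to 1051470 normalized counts. Single markers differed between genotypes. Under abemaciclib the ratio of knockout to sgControl means was 0.35 for *ESR1*, 0.57 for *FOXA1*, 0.63 for *KRT19* and 0.79 for *GATA3*. It was 1.04 for *EPCAM*, 1.14 for *CDH1*, 2.28 for *KRT8* and 2.66 for *KRT18*. Scaling by total count in place of size factors moved the median of all genes by -0.13 in the sgControl response, 0.14 in the difference between responses and 0.12 in the genotype difference under abemaciclib (log2). With it, the share of called genes that were higher went from 50.2% to 40.1% in the sgControl response and from 51.0% to 63.8% in the difference between responses.

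Class II molecules present peptides from the endosomal pathway to CD4+ T cells. An α and a β chain pair in the endoplasmic reticulum, the invariant chain fills their groove and directs them to endosomes, and HLA-DM exchanges the last fragment of the invariant chain for peptide. The genes are normally on in B cells, dendritic cells and macrophages, and other cells, epithelial cells among them, switch them on under interferon γ through CIITA, which binds no DNA itself but joins a complex of RFX, CREB and NF-Y assembled on the X and Y boxes of class II promoters.

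*CD74*, the invariant chain (chr5:150401637-150412969, minus strand, GRCh38), had 4.65, 7.93 and 1.89 normalized counts in the 3 sgControl DMSO libraries and 10.8, 6.20 and 6.17 in the sgControl abemaciclib libraries. In knockout cells it had 236, 272 and 283 in DMSO and 1199, 1054 and 933 in abemaciclib. The sgControl libraries thus held 3 to 10 reads of *CD74* each and every knockout library held at least 173. The ratio of the group means was 54.7 in DMSO and 138 in abemaciclib. In bulk samples such as these, more cells that express a gene and more RNA per cell cannot be told apart.

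*HLA-DRA*, the α chain of the DR molecule (chr6:32439878-32445046, plus strand), followed the same order. It had 3.72, 7.05 and 0.630 normalized counts in sgControl DMSO and 7.54, 2.66 and 5.29 in sgControl abemaciclib, with 1 to 8 reads per library. Knockout libraries had 113, 78.2 and 75.0 in DMSO and 482, 385 and 452 in abemaciclib. The knockout mean was 23.4-fold the sgControl mean in DMSO and 85.2-fold in abemaciclib. In DMSO the fitted log2 difference of 4.67 became 5.54 without sgControl DMSO replicate 2, the library with 8 reads, and 4.02 without sgControl DMSO replicate 3, the library with 1 read.

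*HLA-DRB1*, the β chain that pairs with DRA (chr6:32577902-32589848, minus strand), differed from its partner in sgControl cells. It had 24.2, 9.70 and 13.2 normalized counts in sgControl DMSO and 166, 163 and 153 in sgControl abemaciclib. Knockout cells had 107, 144 and 93.2 in DMSO and 395, 387 and 377 in abemaciclib. The ratio of knockout to sgControl means was 7.30 in DMSO and 2.41 in abemaciclib, and the libraries of the genotypes did not overlap in either.

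The DP chains lie head to head on opposite strands and overlap (*HLA-DPA1*, chr6:33064569-33080775, minus; *HLA-DPB1*, chr6:33075990-33089696, plus). *HLA-DPA1* had at most 1 read and *HLA-DPB1* at most 2 in any sgControl library, and neither had a read in sgControl abemaciclib. In knockout cells *HLA-DPA1* had 16.4, 26.4 and 26.1 normalized counts in DMSO and 109, 69.5 and 109.9 in abemaciclib. *HLA-DPB1* had 16.4, 6.61 and 13.6 in knockout DMSO and 81.5, 55.8 and 53.5 in knockout abemaciclib. Set against a limit of 3 counts per sgControl library, the knockout levels were at least 9.42-fold higher for *HLA-DPA1* and at least 5.00-fold higher for *HLA-DPB1* in DMSO, and at least 33.8-fold and 22.4-fold higher in abemaciclib. Such limits cover counting error only.

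*HLA-DQB1*, the β chain of DQ (chr6:32659467-32668383, minus strand), was the class II chain with the most reads in sgControl cells. It had 392, 326 and 289 normalized counts in sgControl DMSO, 1319, 1211 and 1274 in sgControl abemaciclib, 661, 709.5 and 639 in knockout DMSO and 1055, 1046 and 1094 in knockout abemaciclib. The knockout mean was 2.00-fold the sgControl mean in DMSO, and under abemaciclib the order turned, with every knockout library below every sgControl library and a ratio of 0.84. With total-count scaling the log2 difference under abemaciclib was -0.14 in place of -0.25. An antisense gene on the other strand, *HLA-DQB1-AS1*, had at most 1 read in any library.

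*HLA-DMA* and *HLA-DMB*, the subunits of the peptide exchanger HLA-DM, lie near each other (chr6:32948613-32969094 and chr6:32934629-32941028, both minus strand) but had different levels. *HLA-DMA* had 48.4, 37.9 and 42.8 normalized counts in sgControl DMSO, 102, 109.8 and 118 in sgControl abemaciclib, 82.0, 102 and 60.3 in knockout DMSO and 102, 117 and 142 in knockout abemaciclib. The genotypes overlapped for *HLA-DMA* under abemaciclib. *HLA-DMB* had 0 to 2 reads per sgControl library, 6, 3 and 3 reads in knockout DMSO and 21, 26 and 23 reads in knockout abemaciclib, so the knockout abemaciclib level of 24.8 ± 2.26 normalized counts was at least 8.71-fold higher than the sgControl limit. The *HLA-DMA* span overlaps *BRD2* on the other strand, and reads of the pair can be told apart only if strand was counted, which the sources used here do not state. The same limit holds for the overlapping DP chains. It also holds for *CIITA*, whose span overlaps *DEXI* on the other strand, with group means of 2946 to 4412 normalized counts. *HLA-DMA* and *HLA-DMB* also overlap an annotated gene on their own strand, from which strand cannot separate them.

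*CIITA* (chr16:10866222-10943021, plus strand), the switch of the pathway, had 27.0, 21.2 and 13.2 normalized counts in sgControl DMSO and 12.9, 18.6 and 20.3 in sgControl abemaciclib. It had 46.5, 39.7 and 46.6 in knockout DMSO and 131, 145 and 125 in knockout abemaciclib. The knockout mean was 2.16-fold the sgControl mean in DMSO and 7.76-fold in abemaciclib, with no overlap of the libraries in either.

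*RFX5* (chr1:151340640-151347326, minus strand), the subunit that gives the RFX complex its DNA-binding domain, was high in all groups. It had 5170.2, 5178 and 5508 normalized counts in sgControl DMSO, 4197.5, 4222 and 4006 in sgControl abemaciclib, 6425, 6537 and 6363 in knockout DMSO and 10279, 10388 and 10285 in knockout abemaciclib. The ratio of means between genotypes was 1.22 in DMSO and 2.49 in abemaciclib. Its antisense gene *RFX5-AS1* had at most 18 reads in a library.

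**Figure D1:**
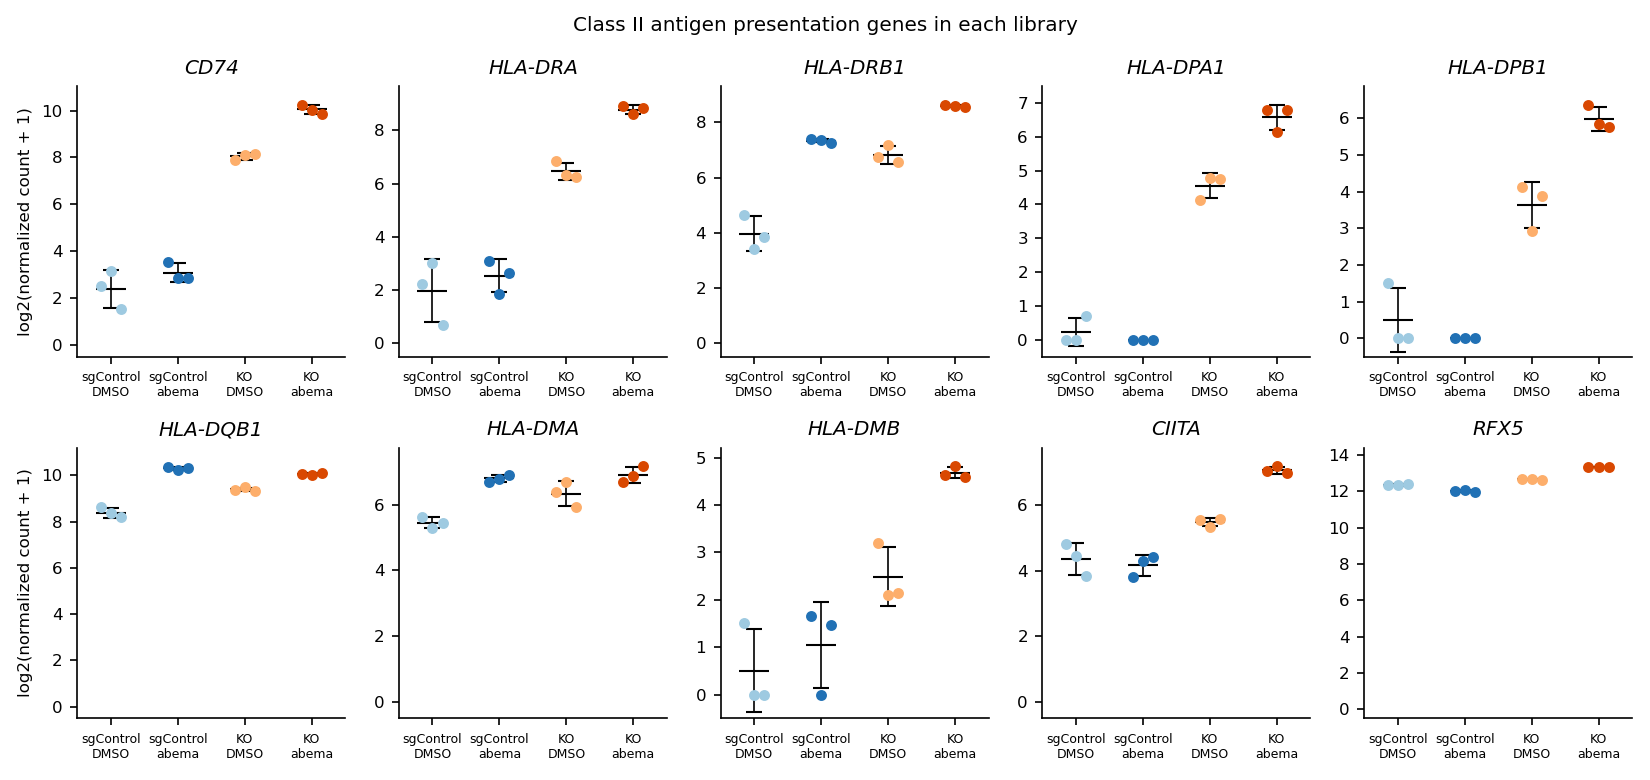
Each panel shows 1 gene, with a point per library at log2(normalized count + 1), and the bar and whiskers give the mean and SD of 3 libraries in sgControl DMSO, sgControl abemaciclib (abema), knockout (KO) DMSO and KO abemaciclib. *CD74*, *HLA-DRA*, the DP chains and *HLA-DMB* are near the bottom in both sgControl groups and step up from KO DMSO to KO abemaciclib, whereas *HLA-DRB1*, *HLA-DQB1* and *HLA-DMA* already step up from sgControl DMSO to sgControl abemaciclib.

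Between genotypes, the 3 libraries of knockout DMSO lay above the 3 of sgControl DMSO for 10 of the 10 genes, beside 23.7% of all genes tested. Under abemaciclib this held for 8 of 10, beside 33.1%, and the reverse held for *HLA-DQB1*, beside 32.6% of all genes. These counts describe the contrast through which the genes were noticed and carry no test. *HLA-DPA1*, *HLA-DPB1* and *HLA-DMB* had at most 2 counts in every sgControl library. In knockout DMSO, 2 of the 3 libraries had no more than 3 counts of *HLA-DMB*.

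Levels can be set side by side between genes per kilobase of summed exon length. That length takes in every annotated exon, and was 22553 bases for *CIITA*, 4526 for *CD74* and 1244 for *HLA-DRA*. A gene with annotated exons that its transcripts here leave out is placed too low, so the order depends on the annotation. Undivided, *CD74* at 1062 ± 133 normalized counts stood above *HLA-DRA* at 440 ± 49.6 in knockout abemaciclib. In knockout abemaciclib the order was *RFX5* at 2265 ± 13.4 normalized counts per kilobase, *HLA-DRA* at 354 ± 39.9, *CD74* at 235 ± 29.5, *HLA-DQB1* at 218 ± 5.28, *HLA-DRB1* at 125 ± 2.93, *HLA-DMA* at 47.8 ± 8.08, *HLA-DPA1* at 16.7 ± 4.00, *HLA-DPB1* at 12.2 ± 2.98, *CIITA* at 5.94 ± 0.459 and *HLA-DMB* at 5.37 ± 0.490 (SD, n = 3). *CD74* and *HLA-DQB1*, *HLA-DPA1* and *HLA-DPB1*, and *CIITA* and *HLA-DMB* were neighbours whose SD ranges overlapped. In sgControl DMSO *HLA-DQB1* at 68.6 ± 10.6 stood above *HLA-DMA* at 17.1 ± 2.09, and *HLA-DRB1* at 5.10 ± 2.45 and *HLA-DRA* at 3.06 ± 2.58 were within each other's spread. The labels name a directional whole-transcript kit, and the study's general methods a 3′ mRNA kit, for which dividing by length would not apply.

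The response to abemaciclib within each genotype was not what the genes were chosen by, and it was tested with DESeq2 over all genes, with an adjusted p under 0.05 counted as called. The knockout response does share knockout libraries with the contrast between genotypes in which *CD74* and *HLA-DRA* were noticed, and so does the difference between responses. In knockout cells all 10 genes were called higher in abemaciclib than in DMSO, where 14.9% of 18546 genes tested were called higher and 15.1% lower. That count of 10 includes *HLA-DPA1*, *HLA-DPB1* and *HLA-DMB*, which had more than 3 counts only in knockout libraries. In sgControl cells 3 of 10 were called higher and 1 lower, where 25.0% of 22723 genes were called higher and 24.8% lower. The knockout count was 8 without knockout abemaciclib replicate 3, where *HLA-DMA* lost its call and *HLA-DMB* had no adjusted p, and 9 or 10 in the other alternatives. The median log2 fold change of the 10 genes in knockout cells was 1.88, beside 0.02 for all genes. No median is given for sgControl cells, where *HLA-DPA1*, *HLA-DPB1* and *HLA-DMB* had too few reads for a change to have a size.

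Among the ligand-binding chains, *HLA-DPB1* rose in knockout cells by 2.40 ± 0.48 (log2 fold change ± SE, adjusted p = 6.36e-06), *HLA-DRA* by 2.32 ± 0.21 (adjusted p = 1.28e-26), *HLA-DPA1* by 2.05 ± 0.37 (adjusted p = 4.89e-07) and *HLA-DRB1* by 1.75 ± 0.17 (adjusted p = 2.97e-22). *HLA-DQB1* rose least of these chains, by 0.67 ± 0.10 (adjusted p = 1.35e-10). The invariant chain *CD74* rose by 2.01 ± 0.14 (adjusted p = 8.73e-45). All the knockout abemaciclib libraries of these 6 genes lay above all the knockout DMSO libraries.

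Of the HLA-DM subunits, *HLA-DMB* rose by 2.35 ± 0.69 in knockout cells (adjusted p = 0.0034), from 3 to 6 reads per library in DMSO to 21 to 26 in abemaciclib. *HLA-DMA* was called at 0.56 ± 0.22 (adjusted p = 0.0375), but its libraries overlapped. That call was lost with the replicate number as a block (adjusted p = 0.0627), without knockout DMSO replicate 3, when the change was 0.38 (adjusted p = 0.231), and without knockout abemaciclib replicate 3 (0.42, adjusted p = 0.207). It was also lost without knockout DMSO replicate 1 (0.56, adjusted p = 0.0888), knockout abemaciclib replicate 2 (0.58, adjusted p = 0.0821) or sgControl abemaciclib replicate 2 (0.56, adjusted p = 0.0519). *CIITA* rose by 1.60 ± 0.26 (adjusted p = 8.91e-09) and *RFX5* by 0.68 ± 0.04 (adjusted p = 4.11e-51).

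In sgControl cells the genes parted. *HLA-DRB1* rose by 3.39 ± 0.25 (adjusted p = 7.25e-42), a 10.2-fold change of the means and the largest response of any of the 10 genes with reads in that genotype. *HLA-DQB1* rose by 1.93 ± 0.10 (adjusted p = 3.18e-84) and *HLA-DMA* by 1.36 ± 0.23 (adjusted p = 8.1e-09). *RFX5* fell by 0.35 ± 0.04 on the log2 scale (adjusted p = 2.11e-14).

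DESeq2 made no call in sgControl cells for *CD74* (0.74 ± 0.47, adjusted p = 0.193), *HLA-DRA* (0.54 ± 0.57, adjusted p = 0.464) or *CIITA* (-0.19 ± 0.33, adjusted p = 0.673). With 1 to 10 reads of *CD74* and *HLA-DRA* per library the depth could not show a moderate change in either. *HLA-DRA* had 3 to 7 reads in the same sgControl abemaciclib libraries in which its partner *HLA-DRB1* had 154 to 184.

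**Figure D2:**
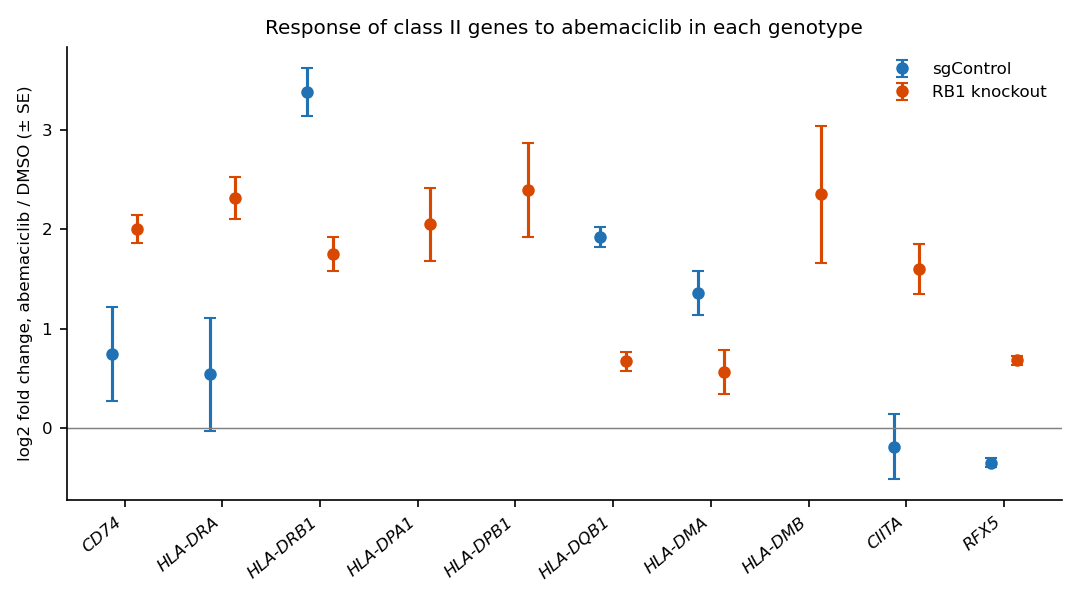
Points give the log2 fold change of abemaciclib against DMSO with its SE from DESeq2, for sgControl (blue) and *RB1*-knockout (orange) cells, and genes at or under 3 counts in sgControl have no blue point. The orange points are above 0 for all 10 genes; the blue point is above the orange one for *HLA-DRB1*, *HLA-DQB1* and *HLA-DMA*, and under it for *CD74*, *HLA-DRA*, *CIITA* and *RFX5*.

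The difference between the responses (knockout response minus sgControl response) was tested directly. It was called higher for 5 of 10 genes and lower for 3, where 21.1% of 20932 genes were called higher and 20.3% lower. *CIITA* had a difference of 1.79 ± 0.42 (log2 ± SE, adjusted p = 7.05e-05) and *RFX5* of 1.03 ± 0.06 (adjusted p = 6.14e-59), so both regulators responded more in knockout cells. *HLA-DRB1* had a difference of -1.64 ± 0.30 (adjusted p = 3.06e-07) and *HLA-DQB1* of -1.26 ± 0.14 (adjusted p = 1.07e-18), so both β chains responded more in sgControl cells. These 4 differences were called in every alternative that was run.

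The differences of *CD74* (1.26 ± 0.49, adjusted p = 0.0273) and *HLA-DRA* (1.78 ± 0.60, adjusted p = 0.00944) rested on the few sgControl reads. Without sgControl DMSO replicate 2 they were 0.69 (adjusted p = 0.412) and 0.91 (adjusted p = 0.388), and edgeR gave adjusted p = 0.0613 and 0.0563. Without sgControl abemaciclib replicate 2 they were 1.13 (adjusted p = 0.0762) and 1.45 (adjusted p = 0.0529), and without sgControl abemaciclib replicate 3 that of *CD74* was 1.13 (adjusted p = 0.0769). *HLA-DPB1* was called (adjusted p = 0.0404) with both sgControl groups under the limit of 3 counts, so its size is not given. Without sgControl DMSO replicate 1, which held its only 2 sgControl reads, the adjusted p was 0.437, it was 0.0786 with edgeR, and it was 0.0645 to 0.0775 without any single sgControl abemaciclib library, knockout DMSO replicate 2 or knockout abemaciclib replicate 1. In the same test *HLA-DPA1* (adjusted p = 0.203) and *HLA-DMB* (adjusted p = 0.608) were not called. *HLA-DMA* had a difference of -0.80 ± 0.32 (adjusted p = 0.0299), which was lost with total-count scaling (-0.66, adjusted p = 0.084) and with the replicate block (adjusted p = 0.0506). It was -0.58 (adjusted p = 0.154) without knockout DMSO replicate 2 and was lost, at -0.80 to -0.69 (adjusted p = 0.0531 to 0.0852), without knockout DMSO replicate 1, knockout abemaciclib replicate 1 or 2, sgControl DMSO replicate 2 or 3, or sgControl abemaciclib replicate 2 or 3.

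Over the 12 libraries the 10 genes fell into a pair of patterns. In log2(normalized count + 1), Pearson's r with *CD74* was 0.991 for *HLA-DRA*, 0.978 for *HLA-DPA1*, 0.959 for *HLA-DPB1*, 0.929 for *CIITA*, 0.904 for *HLA-DMB* and 0.885 for *RFX5*. It was 0.707 for *HLA-DRB1*, 0.515 for *HLA-DMA* and 0.385 for *HLA-DQB1*, and these 3 went with each other at 0.909 to 0.942. The 12 points share 4 groups of 3 libraries and follow mostly from the group means, so these values are a description.

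Among 14546 other genes with a mean of at least 20 normalized counts, the pattern of *CD74* was matched most closely by *SPRR3* (r = 0.991), *MFGE8* (0.987), *UNC13D* (0.987), *DHRS3* (0.986), *LTBP1* (0.983), *POF1B* (0.983), *ISG15* (0.981), *APOL6* (0.980), *SALL2* (0.979) and *PLEKHG6* (0.979). *SPRR3*, a cornified envelope protein, had means of 6.94, 10.2, 77.2 and 249.9 normalized counts in sgControl DMSO, sgControl abemaciclib, knockout DMSO and knockout abemaciclib. *APOL6* had 33.6, 23.7, 421 and 1234 in the same order. The mean of the 7 HLA genes was matched most closely by *UBA7* (0.993), the activating enzyme for the ubiquitin-like protein ISG15, followed by *UNC13D* (0.990), *SPRR3* (0.987), *TINCR* (0.986), *OAS1* (0.986), *SLC12A4* (0.985), *IFI27* (0.983), *LTBP1* (0.982), *ARID5A* (0.982) and *ISG15* (0.982).

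Promoters of the class II genes were read from RefSeq windows of GRCh38.p14, 250 bases before to 50 after each listed start, which were found for 8 of the 10 genes. *HLA-DRA* and *CIITA* had no entry. The cores searched, on both strands, were these: the X box core ACNGATG, in 7.65% of 35116 windows; the Y box core ATTGG, in 34.6%; the interferon γ activated site TTCNNNGAA, in 7.66%; and the E box CACGTG, in 7.26%. An X core 10 to 40 bases before a Y core on the same strand was in 74 windows, 0.211% of all. *HLA-DRB1*, *HLA-DQB1* and *HLA-DMA* held such a pair, as did *HLA-DRB5*, a second DR β chain gene outside the 10. These windows are shown because they held the pair, and their genes are also 4 of the 5 class II genes called higher in sgControl cells under abemaciclib. *HLA-DRA*, which was not called there, had no window to search. Of 39 tested genes with the pair, these included, 43.6% were called higher and 28.2% lower in sgControl cells, beside 25.0% and 24.8% of all genes. In knockout cells it was 29.7% and 13.5% of 37 genes, beside 14.9% and 15.1%. A link between the pair and the response was not tested. The fifth called gene, *HLA-DQA2*, whose sgControl libraries overlapped, is described with the other class II genes and held no pair. Capitals mark the X and then the Y core, 5′ to 3′ on the strand of the gene.

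The windows, all on the minus strand of GRCh38.p14, are chr6:32589875-32589938 for *HLA-DRB1* (-90 to -27 from the start), chr6:32530358-32530421 for *HLA-DRB5* (-134 to -71), chr6:32666726-32666789 for *HLA-DQB1* (-132 to -69) and chr6:32953157-32953221 for *HLA-DMA* (-124 to -60).
HLA-DRB1: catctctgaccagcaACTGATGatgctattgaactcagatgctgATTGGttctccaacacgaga
HLA-DRB5: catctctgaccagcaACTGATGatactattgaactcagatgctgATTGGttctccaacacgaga
HLA-DQB1: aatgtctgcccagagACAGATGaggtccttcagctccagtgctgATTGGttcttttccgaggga
HLA-DMA: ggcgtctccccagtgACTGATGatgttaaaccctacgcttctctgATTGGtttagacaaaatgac

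The space between the cores was 22 bases in the first 3 windows and 23 in *HLA-DMA*. *HLA-DMB* and *CD74* each had 1 X and 1 Y core that did not form such a pair, *HLA-DPB1* had 2 Y cores and no X core, and neither *HLA-DPA1* window had either. *RFX5*, with 3 listed starts, had 2 Y cores in one window, and the others, which overlap, share 1 E box. Letters that match a core are not a bound site, and a window without them says nothing about the factor.

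**Figure D3:**
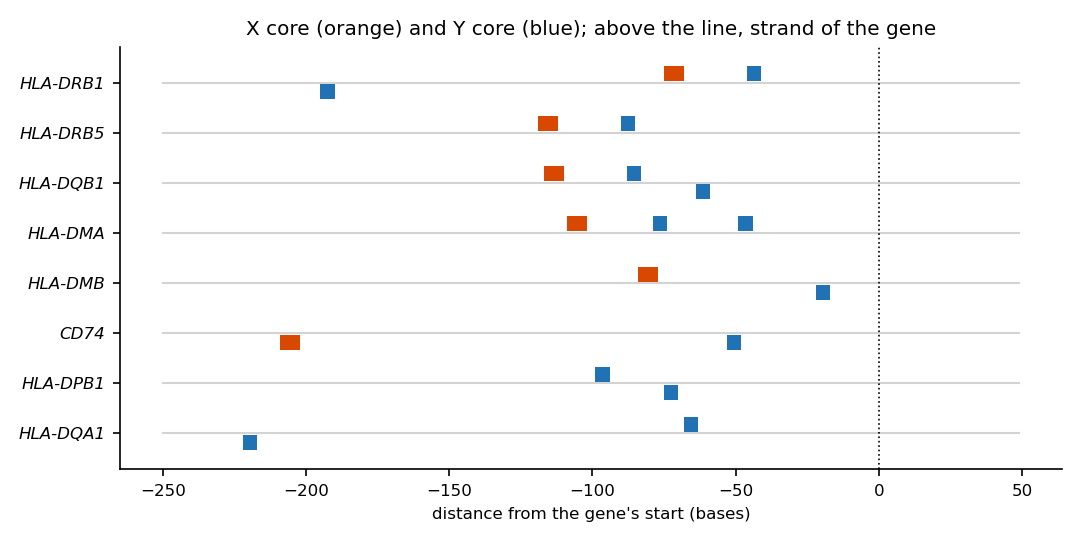
The map places the X core (orange) and Y core (blue) by their distance in bases from the listed start of 8 class II genes, with cores on the strand of the gene drawn above each line and cores on the other strand under it. *HLA-DRB1*, *HLA-DRB5*, *HLA-DQB1* and *HLA-DMA* have an X core followed by a Y core on the same strand at a space of 22 or 23 bases, and the others do not.

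Of the 6 other class II genes, 2 were called higher in each genotype, and 2 had a lower response in knockout than in sgControl cells. *HLA-DRB5* moved as *HLA-DRB1* did. It had 1, 3 and 2 reads in sgControl DMSO and 76, 49 and 60 in sgControl abemaciclib, a level at least 24.3-fold higher than the limit of 3 counts (adjusted p = 1.95e-15), and rose in knockout cells by 1.65 ± 0.27 (adjusted p = 1.65e-08). The DR β chain genes are close copies, so reads can pass between *HLA-DRB1*, *HLA-DRB5* and the pseudogene *HLA-DRB6*, which itself had at most 16 reads. *HLA-DQA1*, the partner of *HLA-DQB1*, had 0 or 1 read in every sgControl library and rose in knockout cells from 9.10 ± 5.47 to 35.1 ± 4.48 normalized counts, a change of 1.95 ± 0.58 (log2, adjusted p = 0.0046). *HLA-DQA2* was called higher in sgControl cells (adjusted p = 0.0223), from 11.8 ± 7.55 to 32.9 ± 17.1, and its difference between responses was -2.63 ± 0.93 (adjusted p = 0.0137). *HLA-DQB2*, *HLA-DOA* and *HLA-DOB* had a mean under 3 normalized counts in every group.

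HLA genes are highly polymorphic and the reads were aligned to the reference alleles, so levels of different HLA genes can differ with how close the alleles of this line are to the reference. The same alleles enter all 4 groups, unless a clone lost one. This was not tested.

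The other factors that meet at class II promoters were not called higher by DESeq2. Of 6 (the RFX subunits *RFXAP* and *RFXANK*, the NF-Y subunits *NFYA*, *NFYB* and *NFYC*, and *CREB1*), 0 were called higher in either genotype, also with edgeR and at an unadjusted p under 0.05. In sgControl cells 3 fell, *NFYB* by 0.92 ± 0.06 (log2, adjusted p = 1.26e-47), *NFYC* by 0.67 ± 0.07 (adjusted p = 1.97e-22) and *CREB1* by 0.63 ± 0.08 (adjusted p = 2.92e-13). In knockout cells 1 fell, *NFYC* by 0.22 ± 0.07 (adjusted p = 0.00468). The difference between responses was called higher for the same 3 genes, at 1.00 ± 0.09, 0.45 ± 0.09 and 0.45 ± 0.12. The 6 had a median response of -0.32 (sgControl) and -0.08 (knockout). Beside these counts, 25.0% of all genes were called higher and 24.8% lower in sgControl cells, and 14.9% and 15.1% in knockout cells. The difference between responses was called higher for 21.1% of all genes.

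The interferon γ axis leads to *CIITA* in epithelial cells. *IFNG*, the ligand, had 0 reads in 3 groups and 2 reads in 1 library of knockout abemaciclib. Of 10 genes of the axis, 9 had an adjusted p. In sgControl cells 7 of these were called higher and 1 lower, beside 25.0% and 24.8% of all genes. The rises were led by the kinases *JAK2* (1.09 ± 0.09, adjusted p = 7.74e-34) and *JAK1* (1.06 ± 0.06, adjusted p = 2.23e-60), whereas the transcription factor *IRF1* fell by 0.37 ± 0.09 (adjusted p = 0.000217). In knockout cells 3 of the 9 were called higher, beside 14.9% of all genes. Among them were the feedback inhibitor *SOCS1* (1.56 ± 0.23, adjusted p = 2.7e-10) and *IRF2* (0.41 ± 0.07, adjusted p = 2.58e-07). *SOCS1* went from 46.2 ± 8.03 to 135 ± 4.93 normalized counts in knockout cells and from 31.3 ± 6.66 to 47.0 ± 5.43 in sgControl cells. With total-count scaling the sgControl count was 4 higher in place of 7, with the calls of *SOCS1* and *USF1* among those lost, and 2 genes in place of 5 had a lower response in knockout cells. The median response of the axis was 0.39 (sgControl) and 0.21 (knockout).

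Of 11 genes that process or act with the invariant chain or class II molecules, 5 were called higher and 2 lower in sgControl cells. The shares of all genes were 25.0% and 24.8%. In knockout cells 2 of the 10 with an adjusted p were called in each direction, near the 14.9% and 15.1% of all genes. The median responses were 0.27 and -0.03. *CTSS*, the protease that cleaves the last part of the invariant chain in professional antigen-presenting cells, had 0 to 8 reads per sgControl library and rose in knockout cells from 14.8 ± 3.96 to 90.0 ± 19.6 normalized counts (2.61 ± 0.46, adjusted p = 2.29e-07). Its difference between responses was not called (adjusted p = 0.0952). *CTSV*, a related protease, fell by 0.75 ± 0.11 in sgControl cells (adjusted p = 4.75e-12) and rose by 0.68 ± 0.10 in knockout cells (adjusted p = 9.33e-10). The lysosomal proteases *CTSD* (1.32 ± 0.13, adjusted p = 1.06e-24), *CTSB* (0.63 ± 0.07, adjusted p = 2.38e-18) and *CTSL* (0.52 ± 0.08, adjusted p = 4.3e-09) rose in sgControl cells. *SCIMP*, an adaptor in class II signalling, had at most 3 reads in any sgControl library and 577 ± 25.2 normalized counts in knockout DMSO, with no call for the drug in knockout cells (0.07 ± 0.11, adjusted p = 0.682).

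Class I antigen presentation, a neighbouring pathway with its own transactivator *NLRC5*, was compared as 12 genes. In knockout cells 9 were called higher, among them the immunoproteasome subunit *PSMB8* (1.11 ± 0.10, adjusted p = 6.83e-28), *NLRC5* (1.11 ± 0.15, adjusted p = 1.05e-11) and *B2M* (0.62 ± 0.09, adjusted p = 1.88e-11), the light chain of class I molecules. In sgControl cells 6 were higher and 4 lower, with *PSMB9* falling by 1.95 ± 0.16 (adjusted p = 7.62e-32). Over all genes, 14.9% were called higher in knockout cells, and 25.0% higher and 24.8% lower in sgControl cells. In sgControl and knockout cells the median of the 12 log2 responses was 0.29 and 0.48. The largest differences between responses were those of *PSMB9* (2.53 ± 0.21, adjusted p = 7.41e-32) and *PSMB8* (1.58 ± 0.15, adjusted p = 1.01e-25), which lie in the class II region of chromosome 6.

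**Figure D4:**
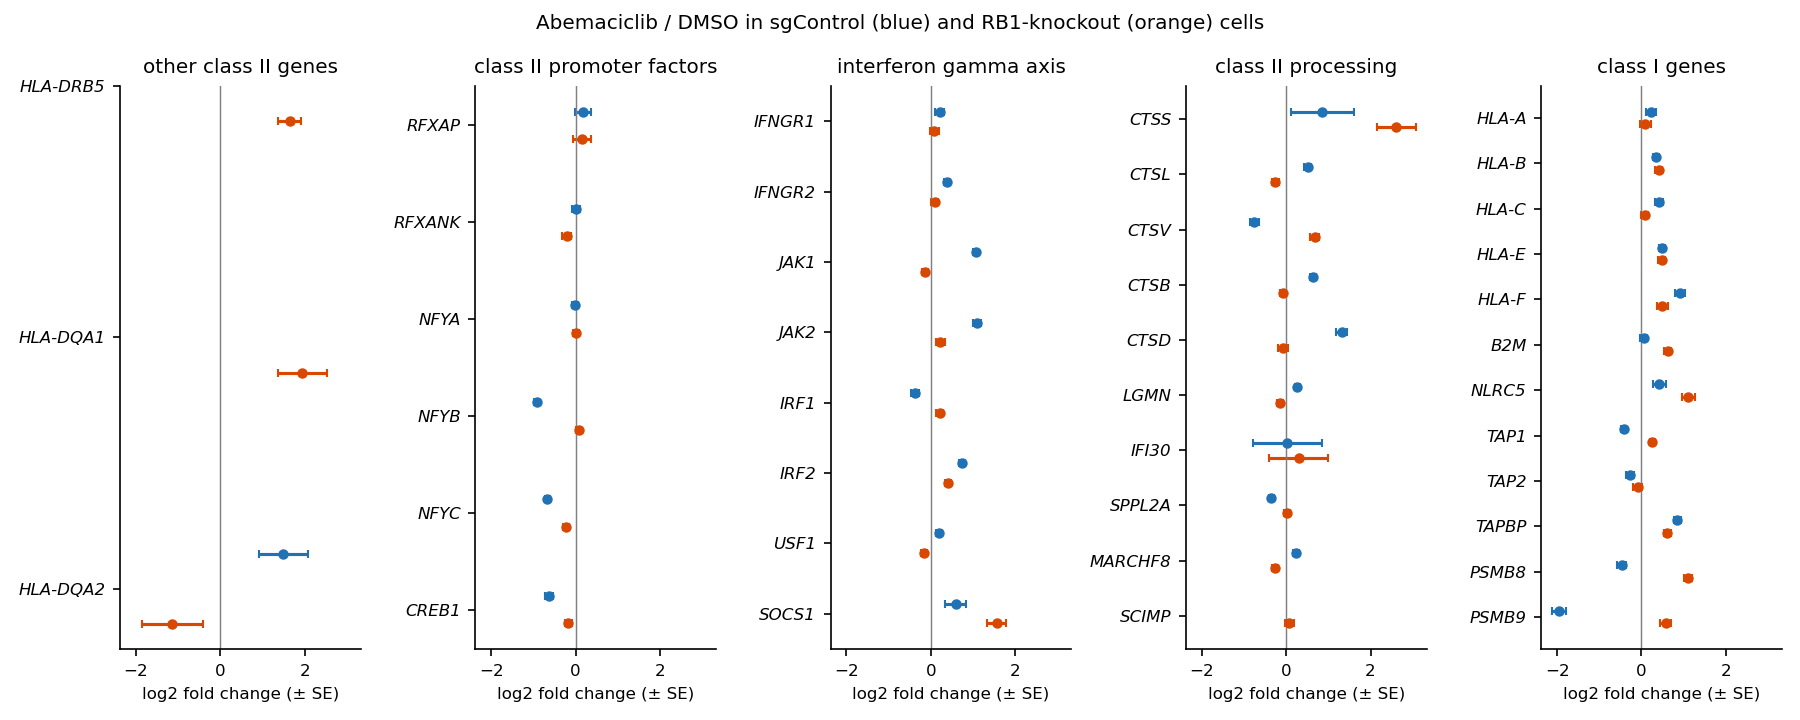
Each point is the log2 fold change of abemaciclib against DMSO with its SE, in sgControl (blue) and *RB1*-knockout (orange) cells, for most genes of 5 related lists, drawn where both groups compared had more than 3 counts in a library. *NFYB*, *NFYC* and *CREB1* lie under 0 in sgControl cells, and *CTSS*, *SOCS1*, *NLRC5*, *PSMB8* and *CTSV* lie to the right of the sgControl point in knockout cells.

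The genes around the 10 were also measured. Within 1000000 bases of the class II cluster, 55 other genes with a mean of at least 100 normalized counts had a median log2 genotype difference of 0.07 in DMSO and 0.02 in abemaciclib, and a median response of -0.01 in knockout cells. The 16 genes around *CD74* had a median genotype difference in DMSO of 0.05, the 11 around *CIITA* 0.00 and the 35 around *RFX5* 0.07.

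Markers of the cells that normally carry class II molecules were summed in each library. The 6 B cell markers summed to 5.46 to 25.9 normalized counts, and *MS4A1* and *CD79B* had at most 2 reads in any library. Most of the sum was *CD79A*, with up to 18 reads in a library, and *BANK1*, with up to 15. Neither was called for the drug in either genotype. The 6 T and NK cell markers summed to 0 to 4.65, with *CD3D*, *CD3E*, *NKG7* and *GNLY* at 0 throughout.

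The 10 myeloid and dendritic markers summed to 31.7 to 55.9 in 3 groups, and *TYROBP*, *AIF1*, *CLEC9A* and *CD1C* were at 0 in every library. In sgControl abemaciclib that sum was 463 to 578, of which *LYZ* made up 505 ± 58.9. *LYZ* rose in sgControl cells by 4.39 ± 0.27 (log2, adjusted p = 5.19e-56) and was not called in knockout cells (-0.75 ± 0.36, adjusted p = 0.107). Its difference between responses was -5.14 ± 0.46 (adjusted p = 4.2e-28). Whether it has a part in the sgControl response of the class II genes was not tested. Single members differed in direction between genotypes. *CSF1R* had 6.80 ± 6.05 normalized counts in knockout DMSO and 18.8 ± 3.51 in knockout abemaciclib against 1.24 ± 2.15 and 1.31 ± 0.734 in the sgControl groups, and its libraries overlapped in DMSO. *FCER1G* was lower in the knockout, at 2.64 ± 3.66 and 4.27 ± 1.90 against 9.33 ± 2.84 and 24.7 ± 4.68, with no overlap, and was called higher by abemaciclib in sgControl cells (1.39 ± 0.55, adjusted p = 0.026; not called with total-count scaling, adjusted p = 0.0561). *CD14* was called lower by the drug in sgControl cells (adjusted p = 0.0208), from 8.10 ± 1.69 to 1.54 ± 0.398. The 6 fibroblast and endothelial markers summed to 1928 to 3128, nearly all of it *COL1A1*, and *VWF* rose in both genotypes, by 1.66 ± 0.24 in sgControl (adjusted p = 2.02e-11) and 1.58 ± 0.26 in knockout cells (adjusted p = 1.56e-08). *COL1A2* and *CDH5* were at 0 in 3 groups.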

How the data were processed

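RNA-seq read counts per gene were deposited by the authors as 1 table of raw counts, not normalized and with replicates not pooled. Reads were trimmed with BBDuk, aligned to hg38 with STAR (2.7.5b) and counted with featureCounts (2.0.1) against GENCODE, per the study's methods and processing notes. Strand and multiple-mapping settings are not given in the sources used here. Of 60656 rows, 44 named NA (0% of counts) were left out.

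All 12 libraries entered 1 DESeq2 (1.42.0, R 4.3.3) fit whose single factor was the group, with median-of-ratios size factors, two-sided Wald tests, Benjamini-Hochberg adjustment after independent filtering and no shrinkage. Alternatives were edgeR (4.0.16) quasi-likelihood tests, total-count scaling, a filter of 10 counts in 3 libraries, fits per genotype, a replicate block, no independent filtering and leaving out each library. The pipeline was tested on simulated data. Folds against groups at or under 3 counts per library used 3 counts as the floor. All 10 chosen genes are named, other genes by their lists, and the 10 most alike by Pearson's r. Of the listed genes, 2 are not reported here singly. Genes and lists were chosen with earlier results of these data known. Neighbouring genes were added after values were seen. Positions are from GENCODE on GRCh38, another release than the counts. Replicates differed by more than sampling noise (lowest chi-square per gene 3.32).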

Additional observations from a re-analysis of the deposited data

Results flagged for a closer look

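The following values were singled out because the drug response differed between the genotypes by the test of that difference. On the log2 scale, knockout minus sgControl, it was 1.26 for *CD74*, 1.78 for *HLA-DRA*, 1.79 for *CIITA* and 1.03 for *RFX5*, and -1.64 for *HLA-DRB1*, -1.26 for *HLA-DQB1* and -0.80 for *HLA-DMA*. *HLA-DPB1* had an adjusted p of 0.0404 in the same DESeq2 test with both sgControl groups at or under the floor. The α chain *HLA-DRA* and the β chain *HLA-DRB1*, which form 1 molecule, lie on opposite sides.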

How the results depend on the processing

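Of the counts of calls, that of the genes with a higher response in knockout cells moved most. Its 5 genes became 2 with edgeR and ranged from 2 to 5 when 1 library was left out: 2 without sgControl abemaciclib replicate 2, 3 without sgControl abemaciclib replicate 3 and 3 without sgControl DMSO replicate 2. *CIITA* and *RFX5* were called in each. In sgControl cells, responses that were not called changed sign for *HLA-DRA* (-0.11 without sgControl DMSO replicate 3, to 1.41 without sgControl DMSO replicate 2) and *CIITA* (0.054 without sgControl DMSO replicate 1, to -0.46 without sgControl DMSO replicate 3). The *HLA-DMA* calls were lost in 8 alternatives in knockout cells and 10 for the difference, among them the replicate block (0.56 and -0.79). Same-numbered samples of the abemaciclib groups of both genotypes deviated together in all 3 pairs (r = 0.11 to 0.26), a comparison given here without a test. In the pairs of DMSO and abemaciclib, on which the tests rest, sgControl samples did so for replicates 1 and 2 (0.25 and 0.22) but not 3 (-0.08). Knockout samples did not (-0.07 to 0.02), nor did those of the DMSO groups (-0.25 to 0.08). Whether the tested groups are paired thus stayed unclear, and the block was kept as an alternative. It changed no other call of the 10 genes. *HLA-DMB* had no adjusted p in knockout cells without knockout abemaciclib replicate 1 or 3. The cause of these changes was not tested. The 10 genes called higher in knockout cells ranged from 8 to 10, and the 3 in sgControl cells stayed at 3. Of the values of single genes under all alternatives, 616 were unchanged, 25 lost the call, 4 descriptions between genotypes moved and 2 tested responses changed sign. For a test, unchanged means the same direction and side of the threshold. For a description between genotypes, which has no threshold, it means a shift under the SD between libraries, whatever the sign. By that rule the genotype difference of *HLA-DMA* under abemaciclib was unchanged, at 0.13 in the main fit and as low as -0.009 without 1 library. Depth limits *CD74*, *HLA-DRA*, *HLA-DMB* and the DP chains in sgControl cells.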
